A study of Capra hircus with 6 samples.

Results

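KRT19 and KRT17 are genes of keratins, the filament proteins of epithelial cells, and are 2 of the 6535 genes with a probe of a single symbol here. Of the 8379 probes on the array, 3 carry their symbols. They were taken by symbol from the platform annotation: probes Bt00001308 and Bt00008182 for KRT19 and probe Bt00006847 for KRT17. All 3 were among the 6733 probes bright enough to be tested. RNA came from the lactating mammary gland of 6 goats that had all been without food for 48 h. Of these, 3 goats were of the Low CSN1S1 genotype and 3 of the High CSN1S1 genotype, where CSN1S1 is the gene of the milk protein alpha-s1-casein. Each array held 1 Low and 1 High goat in different dyes, and each of the 3 pairs of goats (A, B and C) was hybridized on 2 arrays with the dyes Cy3 and Cy5 exchanged. The sources used here give no breed, age or stage of lactation, and name no single alleles behind the genotypes.

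Keratins form filaments from an acidic (type I) and a basic (type II) partner, and which keratins a cell makes depends on the kind of epithelium. In the mammary gland, luminal cells line the alveoli and ducts and secrete milk, and they typically contain KRT8, KRT18 and KRT19. Myoepithelial cells lie outside them, contract to expel milk, and contain basal keratins such as KRT5 and KRT14. KRT17, also type I, is found in basal and myoepithelial cells and in skin appendages and is induced in stressed skin, while KRT19 is the smallest keratin and has nearly no tail domain. RNA here is from whole tissue, so fewer cells of a type and less RNA per cell cannot be told apart.

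CSN1S1 was at a log2 ratio of Low over High of -2.57, -2.84 and -2.73 in the A, B and C pairs, and CSN1S2, CSN3, LALBA, PAEP and LTF stood above background in 12 of 12 readings. A reading is 1 dye on 1 array. It counts as above background when the mean signal of a probe's 2 spots exceeds the background by 2 of its standard deviations. Between 66.3% and 87.4% of probes did so per reading, and the median signal was 2.66 to 6.01 times the background. The number of pairs, 3, limits the precision. Since the labels number the goats, the pairs are separate animals.

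Each of the 3 keratin probes passed that limit in all 6 readings of Low goats and all 6 of High goats. None of their spots was flagged or saturated. KRT19 on Bt00001308 had signals of 2.30 to 5.44 times the background in Low readings and 2.26 to 4.23 times in High readings. KRT19 on Bt00008182 had 3.82 to 9.66 times the background in Low readings and 4.44 to 15.5 times in High readings. KRT17 had 7.04 to 14.9 times the background in Low readings and 5.99 to 14.2 times in High readings. The ranges of the genotypes overlapped for each probe. Probes differ in how well they bind goat RNA, so these figures do not rank KRT19 against KRT17.

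Single-channel levels, on a log2 intensity scale after normalization, were averaged over the 2 dyes of each goat. For KRT19 on Bt00001308 the Low goats were at 7.58, 8.02 and 7.76 and the High goats at 7.67, 8.01 and 7.78 in the A, B and C pairs. For KRT19 on Bt00008182 the Low goats were at 8.85, 9.05 and 8.39 and the High goats at 8.85, 9.25 and 8.59. For KRT17 the Low goats were at 9.15, 9.36 and 9.22 and the High goats at 9.29, 9.41 and 9.34. On each probe the levels of the genotypes overlapped, and both goats of pair B were above both goats of pairs A and C. The means were 7.79 ± 0.22 in Low goats and 7.82 ± 0.17 in High goats on Bt00001308 (SD, n = 3 each). On Bt00008182 they were 8.76 ± 0.34 in Low goats and 8.89 ± 0.33 in High goats (SD, n = 3 each). KRT17 averaged 9.24 ± 0.11 in Low goats and 9.35 ± 0.06 in High goats (SD, n = 3 each). On both KRT19 probes the gap between the genotype means was smaller than the SD over the goats of either genotype. For KRT17 the gap was 0.10, close to the SD over Low goats and larger than that over High goats. Since paired goats were read on shared arrays, this spread mixes differences between arrays with differences between goats.

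**Figure D1:**
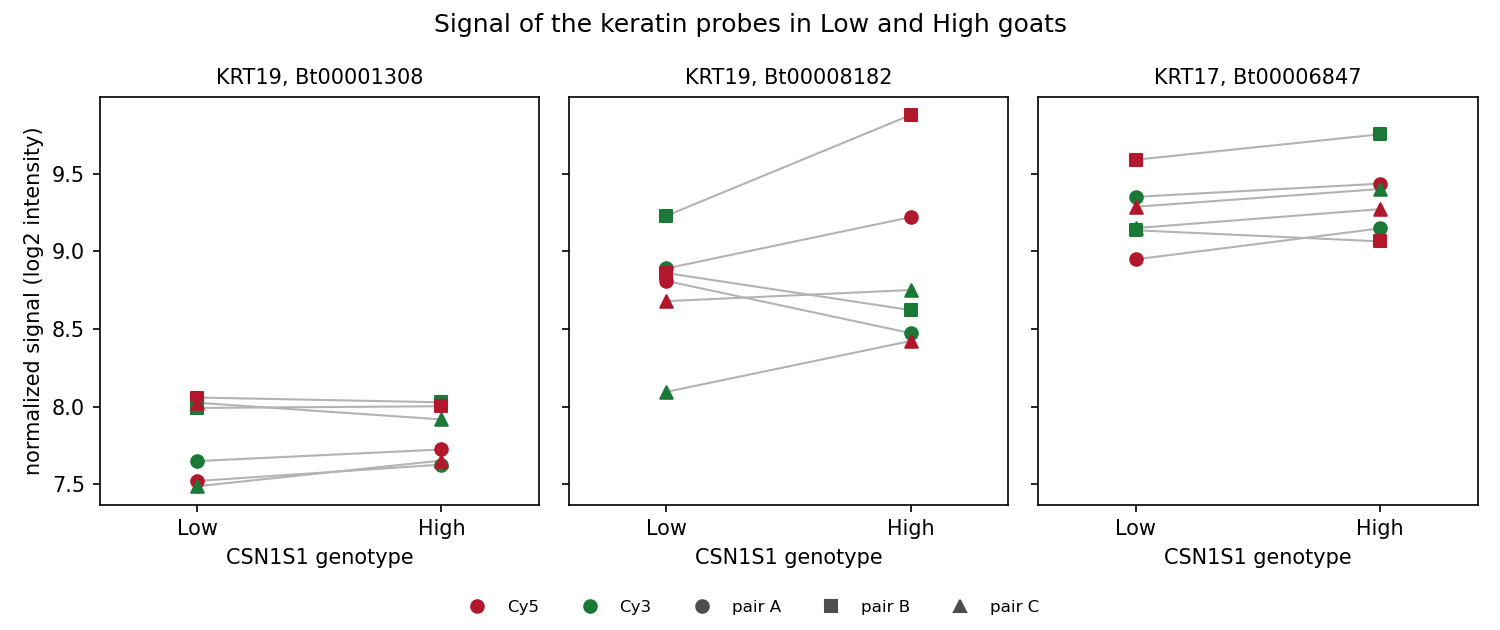
Normalized signal (log2 intensity, vertical axis) of the 3 keratin probes in Low and High goats; each line joins the 2 readings of 1 array, colour is the dye of the reading and shape the pair. On Bt00008182 the lines cross, with Low readings from 8.09 to 9.23 and High readings from 8.42 to 9.88, while on KRT17 the Low reading is the lower one on 5 of 6 arrays; heights of different probes cannot be compared.

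Because both goats of a pair lie on the same array, the genotypes were compared as log2 ratios of Low over High, averaged over the 2 arrays of a pair, and values under 0 stand for less signal from the Low goat. None of the 3 probes passed the threshold of 0.05 on the p-value adjusted over all 6733 probes, where 0.446% of the tested probes passed. Before adjustment, 2 of the 3 had a p under 0.05, against 11.3% of the tested probes. The log2 ratio was below 0 in all 3 pairs for 1 of the 3, KRT17, as for 16.9% of the tested probes. The genes were chosen with earlier results of these data known, so these comparisons with all tested probes are no test.

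KRT19, the luminal keratin, gave different pictures on its 2 probes. On Bt00008182 the pairs were at 0.0029, -0.21 and -0.20, a mean of -0.13 ± 0.12 (SD, n = 3; limma unadjusted p = 0.0193, adjusted p = 0.363). This is a signal 0.911 times that of High goats, with a 95% interval of 0.846 to 0.981 from the same fit, before any correction for the number of probes. With pair A, B or C left out, the mean was -0.20, -0.098 or -0.10. With 1 array left out it ran from -0.28 to 0.014, above 0 without the pair B array whose Low goat carried Cy3. Leaving out 1 array of a pair leaves the dye effect of that pair uncancelled, so those values mix it with the genotype ratio. Pairs B and C were low and pair A was not. On Bt00001308 the pairs were at -0.090, 0.0099 and -0.029, a mean of -0.036 ± 0.050 (SD, n = 3; limma unadjusted p = 0.363, adjusted p = 0.723). The signal of Low goats was 0.975 times that of High goats, with a 95% interval of 0.919 to 1.03. Pair A, nearest to 0 on the first of these probes, was thus the lowest on the other. The first probe minus the second was 0.093, -0.22 and -0.17 in the A, B and C pairs, a mean of -0.098 ± 0.17 (exact sign-flip test over the pairs, two-sided, p = 0.5, where 3 pairs cannot go below 0.25).

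KRT17, the myoepithelial keratin, was at -0.14, -0.046 and -0.12 in the A, B and C pairs. The mean was -0.10 ± 0.05 (SD, n = 3; limma unadjusted p = 0.0242, adjusted p = 0.386), a signal in Low goats 0.932 times that of High goats with a 95% interval of 0.878 to 0.989. All 3 pairs were low, and 5 of 6 arrays were below 0. Of the tested probes, 90.9% had a ratio no farther from 0 than KRT17, and for Bt00008182 this share was 96.2%. For Bt00001308 it was 47.4%. As the genes were chosen with earlier results of these data known, these ranks are no test. The spread between pairs was larger on Bt00008182 than on most probes, at the 88.6th percentile of the tested probes, and for Bt00001308 and KRT17 it lay at the 38.5th and the 37.9th percentile.

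The dye of the Low goat moved with the ratio of KRT19 on Bt00008182. On arrays whose Low goat carried Cy5, this probe had log2 ratios of 0.34, 0.24 and -0.07 in the A, B and C pairs, and on arrays whose Low goat carried Cy3 it had -0.33, -0.65 and -0.33. The 3 arrays of one orientation were all above the 3 of the other. The same lack of overlap was seen for 1 of the 3 keratin probes and for 53.3% of the tested probes. The raw signals, before background correction and normalization, were as follows. Where the Low goat carried Cy5, the Low signals were 445, 400.0 and 466 and the High signals 325, 361 and 453 in the A, B and C pairs. Where the Low goat carried Cy3, the Low signals were 404, 559.6 and 246 and the High signals 560.2, 851 and 342. In raw signal the Cy5 reading was thus the brighter one on each of these 6 arrays, whichever goat it held. Raw signals mix the balance of the dyes over a whole array with the dye effect of the probe. After normalization the Cy5 reading was the lower one on the pair C array whose Low goat carried Cy5 (8.68 against 8.75). In the mean of a pair an equal dye effect cancels, and the genotypes were compared on those means.

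The dye effect was taken as the distance of a pair's arrays from their mean, positive where the array whose Low goat carried Cy5 was the higher one. On Bt00008182 it was 0.33, 0.44 and 0.13 in the A, B and C pairs. Its mean of 0.30 ± 0.16 (SD, n = 3) was as large as or larger than that of 95.1% of the tested probes. The genotype ratio of this probe, -0.13, was smaller than its dye effect and close to the SD of that effect between pairs. On Bt00001308 the dye effect was -0.015, 0.021 and 0.14, and for KRT17 it was -0.057, -0.12 and 0.0040. By size their means were as large as or larger than those of 27.0% and 32.0% of the tested probes. With a dye term in the fit of all 6 arrays the genotype ratios were -0.13 on Bt00008182 and -0.036 on Bt00001308. Each pair was read in both orientations, so that term cannot move these means and is no separate check.

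For the other 2 probes the orientations overlapped. Bt00001308 had -0.11, 0.031 and 0.11 on arrays whose Low goat carried Cy5, and -0.075, -0.011 and -0.17 on those whose Low goat carried Cy3. KRT17 had -0.20, -0.16 and -0.11 on arrays whose Low goat carried Cy5, and -0.085, 0.072 and -0.12 on those whose Low goat carried Cy3. KRT17 was thus below 0 on both arrays of pairs A and C and on the pair B array whose Low goat carried Cy5. The duplicate spots of a probe differed by at most 0.14 on Bt00001308, 0.23 on Bt00008182 and 0.15 for KRT17 on any array, less than the gap between the orientations of Bt00008182.

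**Figure D2:**
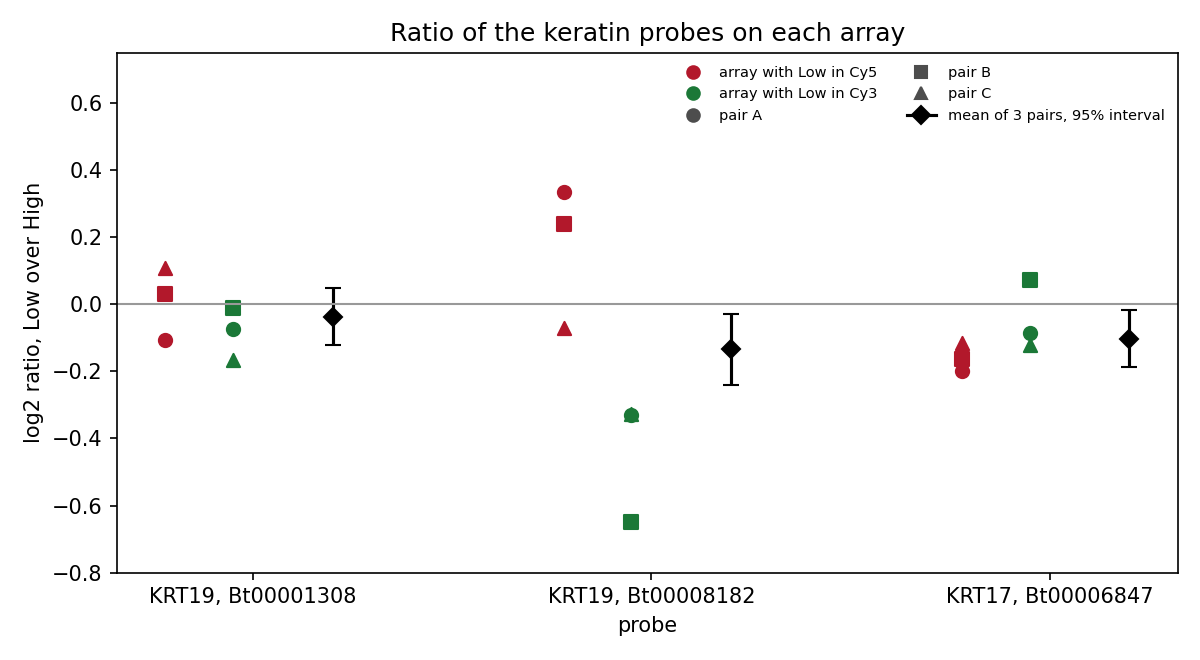
Log2 ratio of Low over High (vertical axis) for each keratin probe; small symbols are the 6 arrays, coloured by the dye of the Low goat and shaped by pair, and the diamond is the mean of 3 pairs with its 95% interval from limma before correction for the number of probes. The arrays of Bt00008182 separate by dye, at -0.07 to 0.34 where the Low goat carried Cy5 and -0.65 to -0.33 where it carried Cy3, and those of the other probes do not.

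The deposited ratios of the authors gave the same order of the probes. In the authors' deposited table, KRT19 on Bt00008182 had log2 ratios of 0.47, 0.28 and -0.080 on the arrays whose Low goat carried Cy5, and -0.39, -0.69 and -0.43 on those whose Low goat carried Cy3. In the authors' deposited table, KRT17 had -0.19, -0.17 and -0.15 on arrays whose Low goat carried Cy5, and -0.091, 0.040 and -0.15 on those whose Low goat carried Cy3. Refitted from those values, the mean log2 ratios were -0.14 for Bt00008182, -0.060 for Bt00001308 and -0.12 for KRT17, and none passed.

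Luminal keratin was then set against myoepithelial keratin within each goat pair, as the log2 ratio of KRT19 minus that of KRT17, which shows whether the genotypes differ in the balance of both. With the brighter KRT19 probe, Bt00008182, this difference was 0.14, -0.16 and -0.08 in the A, B and C pairs, a mean of -0.032 ± 0.16 (SD, n = 3; exact sign-flip test, two-sided, p = 0.75). It was above 0 on 3 of 6 arrays. With Bt00001308 it was 0.052, 0.056 and 0.089, a mean of 0.066 ± 0.020 (SD, n = 3; exact sign-flip test, p = 0.25, the lowest that 3 pairs can reach). It was above 0 on 4 of 6 arrays. The sign of the balance thus depended on the probe of KRT19, and with the brighter probe the difference was smaller than the spread between pairs. Without pair B, that difference was 0.032, the opposite sign.

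**Figure D3:**
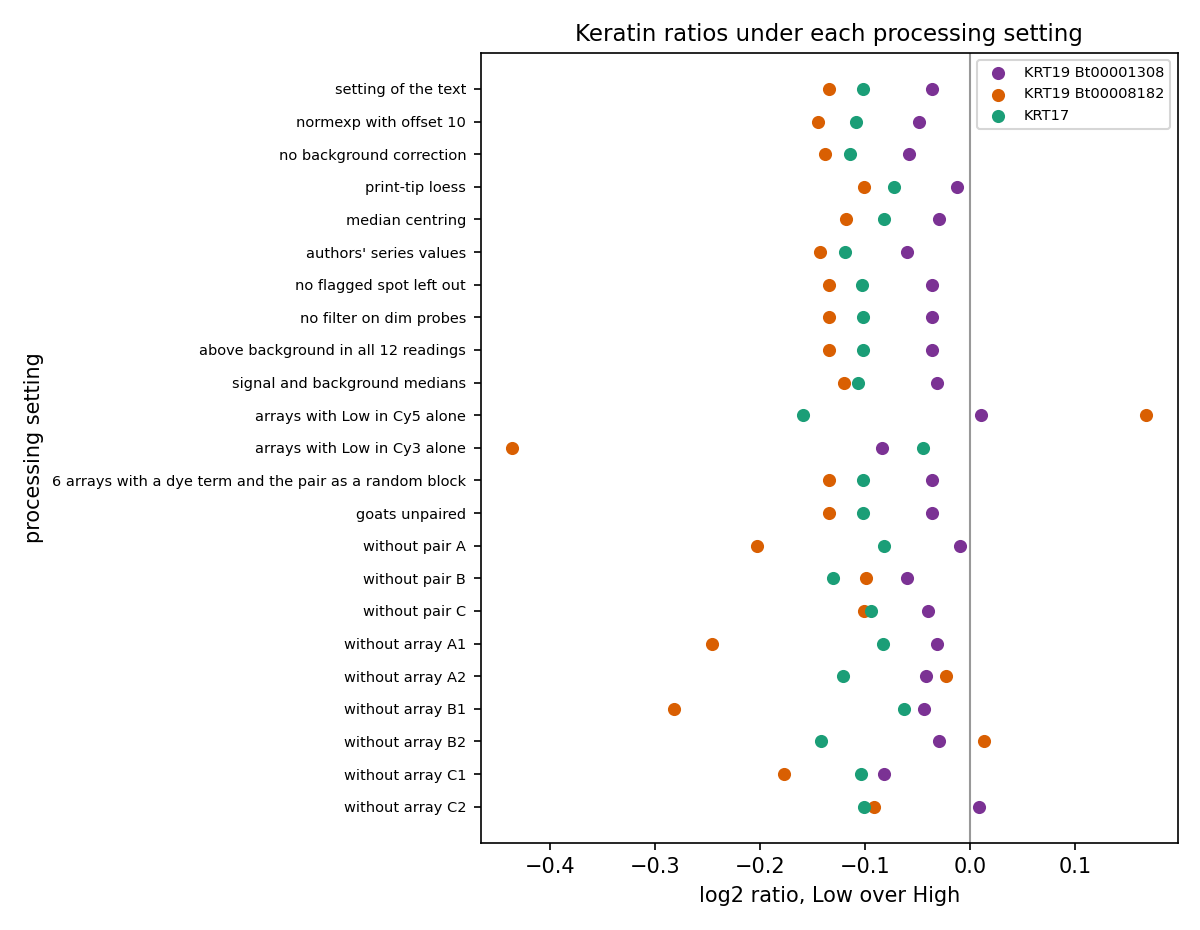
Log2 ratio of Low over High (horizontal axis) for the 3 keratin probes under each processing setting (rows); each point is 1 setting. KRT17 lies between -0.16 and -0.045 in every alternative drawn, while KRT19 on Bt00008182 runs from -0.44 with the arrays whose Low goat carried Cy3 alone to 0.17 with those whose Low goat carried Cy5 alone.

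Of the other keratins, 7 more genes had a probe of their own, all of them tested, and 0 passed in limma (lowest adjusted p = 0.527, and 0 with an unadjusted p under 0.05). Their ratios were below 0 for 4 and above 0 for 3. KRT8 and KRT18 are the type II and type I partners of luminal cells. KRT8 was at -0.18, -0.020 and 0.0050 in the A, B and C pairs, and KRT18 at 0.039, 0.037 and 0.026. KRT7, a type II keratin of simple and ductal epithelia, was at -0.048, 0.076 and -0.049. KRT20, a keratin known from the gut and urinary tract, was at 0.14, 0.024 and 0.035. KRT14, the type I basal keratin, was at -0.0018, 0.0060 and -0.0057, the narrowest spread of these keratins (SD 0.0059, n = 3). KRT15, also basal, was at 0.013, -0.15 and -0.026, and KRT4, a type II keratin of stratified mucosa, at 0.032, 0.20 and 0.0059.

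The keratins listed as luminal here, KRT7, KRT8, KRT18, KRT19 and KRT20, had a median log2 ratio of -0.0067, with pair medians of 0.0029, 0.024 and 0.0050. KRT20 was counted among them although it is known from the gut and urinary tract. Without KRT20, a choice made after seeing the data, their median was -0.037, with pair medians of -0.022, 0.0081 and -0.022. The basal keratins KRT14, KRT15 and KRT17 had means below 0, with a median of -0.053 and pair medians of -0.0018, -0.046 and -0.026. These means show no shared decrease. KRT14 lay nearly on 0, at -0.0005, and was above 0 in pair B (0.0060). KRT15 was above 0 in pair A (0.013). Only KRT17, itself a gene under study here, was below 0 in every pair. Over all tested probes the median was 0.0031. In gene order on the goat assembly ARS1.2, KRT14 is the second gene after KRT19 in the type I keratin cluster, past KRT9. No gene of the symbol KRT17 was listed in the goat annotation used here, so KRT17 was not placed. JUP, the gene of the junction protein plakoglobin, follows further along and was at -0.0063. Related type I keratins are alike in sequence, and whether the KRT17 and KRT19 probes also bind transcripts of such relatives was not tested.

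**Figure D4:**
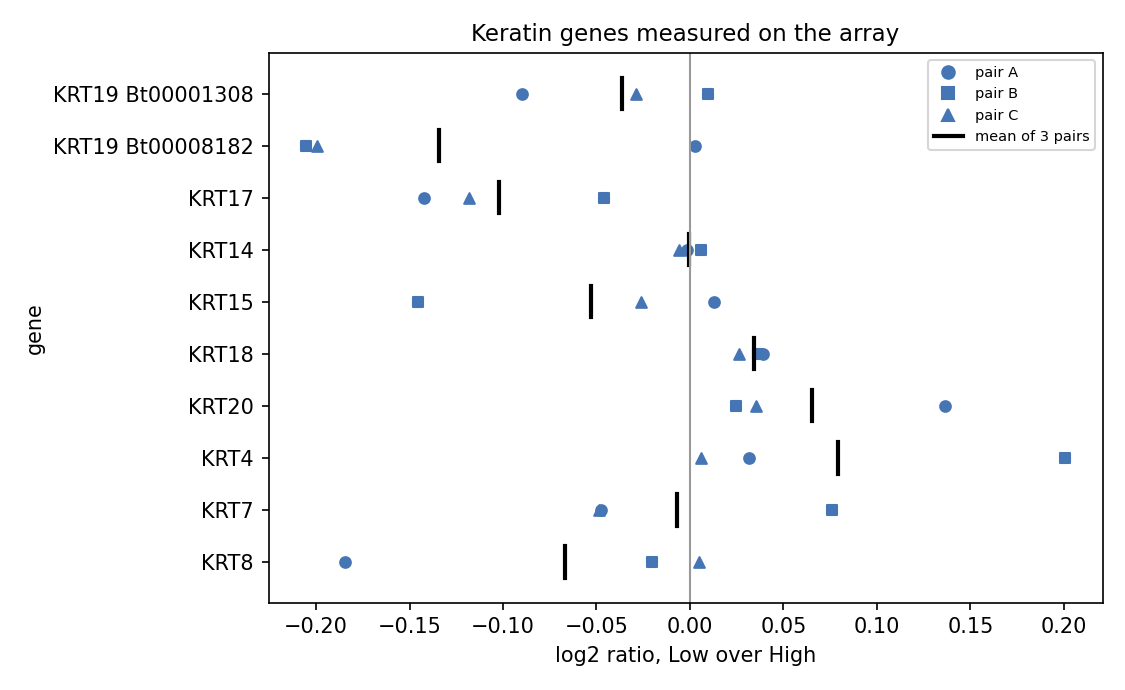
Log2 ratio of Low over High (horizontal axis) for each named keratin gene on the array; symbols are the 3 pairs and the bar is their mean. The means run from -0.13 for KRT19 on Bt00008182 to 0.079 for KRT4, and the pairs of KRT14 lie nearly on 0.

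Markers of the layers that hold these keratins showed no gene past the threshold. Of the luminal list, 12 of 20 genes were tested, with 7 below 0, KRT19 among them, 5 above 0 and a median of -0.0076. After KRT19, its smallest p-values were those of KRT20, listed as luminal though known from the gut and urinary tract, at 0.065, and KRT8 at -0.067. MUC1, a mucin of the luminal surface, was at 0.060, ELF5, a transcription factor of alveolar differentiation, at 0.013, and PRLR, the prolactin receptor, at -0.028. Of the myoepithelial and smooth muscle list, 7 of 20 were tested, with 6 below 0, 1 above 0, 0 passed and a median of -0.053. Of these 6, KRT17 is itself a gene under study and KRT14 lay nearly on 0, at -0.0005. The median is the value of KRT15, which stood above background in 9 of 12 readings. Each list holds a gene under study, so its count is not independent of that gene. ACTA2, the smooth muscle actin of contractile cells, was at -0.078 ± 0.11 (SD, n = 3). TPM2, a tropomyosin, was at -0.069 ± 0.081, MYLK, the kinase that starts smooth muscle contraction, at -0.033, and CNN1, calponin, at 0.011. TPM2 stood above background in 6 of 12 readings, the fewest allowed for a tested probe. Of all tested probes, 48.2% were below 0. Apart from KRT17, no gene of that list was below 0 in all 3 pairs. The median of the luminal list was -0.043, 0.0020 and 0.016 in the A, B and C pairs, and that of the myoepithelial list was -0.060, -0.046 and -0.0057. The luminal median was below 0 in 15 of 23 processing alternatives, some of which cannot change it. The myoepithelial median was above 0 on the arrays whose Low goat carried Cy5 alone (0.054) and without the pair B array whose Low goat carried Cy3 (0.011). Both of these settings leave a dye effect uncancelled.

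**Figure D5:**
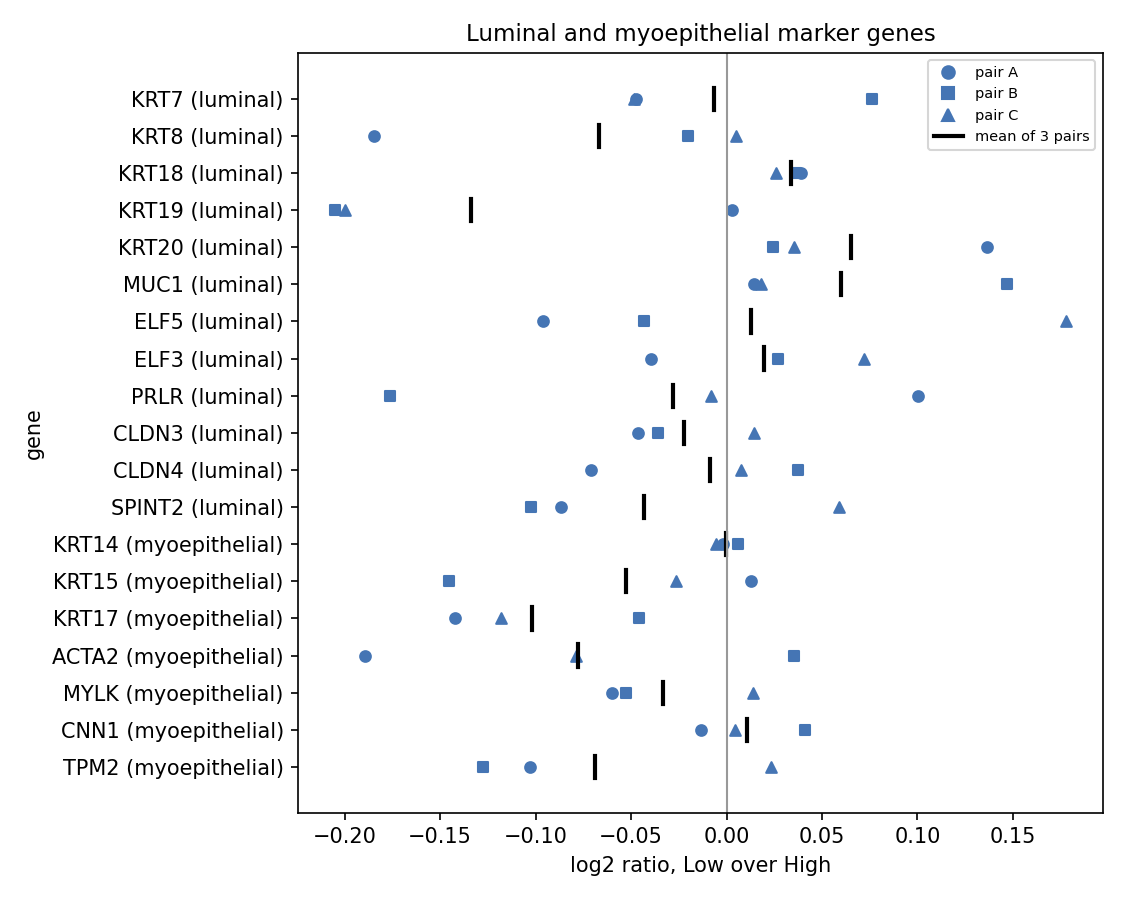
Log2 ratio of Low over High (horizontal axis) for the tested luminal and myoepithelial marker genes, 1 probe per gene; symbols are the 3 pairs and the bar is their mean. KRT19 on Bt00008182 (-0.13) and KRT17 (-0.10) have the lowest means of their lists, and most genes have pairs on both sides of 0. KRT19 on Bt00001308, not drawn, was at -0.036, above KRT8 at -0.067. The 2 keratins were chosen with earlier results of these data known, so their rank is no test.

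Genes that anchor or bind keratin filaments were read next. Of the anchorage list (desmosomes, hemidesmosomes and plakins), 8 of 23 were tested, with 4 below 0, 4 above 0, 0 passed and a median of 0.0034. DST, the plakin dystonin that ties keratin to hemidesmosomes, was at 0.098 (limma adjusted p = 0.408). PERP, a desmosome membrane protein, was at -0.049, PKP3, a plakophilin, at -0.046, and PLEC, plectin, at 0.013. TRADD, an adaptor of the TNF receptor that can bind keratins, was the 1 tested gene of the keratin-binding list, at -0.0082. Of the adherens and tight junction list, 7 of 15 were tested, with 4 below 0, 0 passed and a median of -0.0085. CTNND1, the cadherin-binding p120 catenin, was at -0.11 (limma adjusted p = 0.351). F11R, a tight junction adhesion molecule, was at 0.081 and TJP1, the scaffold ZO-1, at -0.055. Of the other intermediate filament genes, 4 of 15 were tested, 2 below 0 and 0 passed, with a median of -0.0076. VIM, the filament protein of mesenchymal cells, was at -0.11 (limma adjusted p = 0.386). LMNB1, a nuclear lamin, was at -0.036 and GFAP, the filament protein of glia, at 0.025.

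Markers of other cells that a gland sample can hold did not pass either. Leukocyte genes were 3 of 7 below 0 (median 0.0013), with ITGB2 at -0.16, CD68 at 0.12 and CD79A at -0.051. SPARC and DCN, the 2 tested fibroblast and matrix genes, were at -0.13 and 0.0031. SPARC stood above background in 7 of 12 readings and DCN in 12. Adipocyte genes were LEP at -0.27, CFD at 0.043 and ADIPOQ at 0.015, endothelial genes CDH5 at -0.077 and VWF at 0.027, and the 1 tested red cell gene, ALAS2, was at -0.0033. Skeletal muscle genes were 2 of 5 below 0 (median 0.022), with CKM at -0.13, TNNT3 at -0.056 and MB at 0.050. TGM3, the 1 tested skin keratinocyte gene, was at 0.053. Of the 6 tested milk protein genes CSN1S1 passed, with LTF at -0.67 and LALBA at 0.55 not passing. Whether cell makeup had a part in the keratin values was not tested.

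The probes whose level over the 6 goats was most like that of each keratin were found by Pearson's r. For KRT19 on Bt00008182 these were NOL6, a nucleolar protein gene, MTMR4, a phosphoinositide phosphatase, TBL1X, a corepressor subunit, PTRHD1 and AVPI1, with r from 0.988 to 0.994. For KRT17 they were LGI1, XRCC6, the Ku70 DNA repair protein, PTMS, OLFML1 and TF, the transferrin gene, with r from 0.949 to 0.965. These 10 were picked for the highest r over 6 goats, so high values follow from the choice. Over all probes the median r was -0.0044 for Bt00008182 and -0.022 for KRT17. LGI1, at a log2 ratio of -0.38 (limma adjusted p = 0.0033), was the 1 of these 10 past the threshold, which 0.446% of the tested probes passed. Both keratin probes had means below 0 and r ran over goats of both genotypes, so the choice can favour probes lower in Low. The share over all tested probes is thus no measure for these 10. The 2 KRT19 probes correlated with each other at r = 0.56, and Bt00001308 ranked 1793 among 6732 probes by likeness to Bt00008182. KRT17 correlated at r = 0.56 with Bt00008182 and 0.86 with Bt00001308. These r describe 6 goats of which 2 at a time share arrays, so levels of arrays enter them.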

How the data were processed

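Per the labels, 5 µg of total RNA per goat was labelled directly with Cy3 or Cy5 and the arrays were read with ImaGene 6.0 (6.0.1 per the file headers). The deposited scanner files hold signal and background intensity per spot and dye, with the background not subtracted. A series table with the log2 ratio of each spot was also deposited. Its direction, Low over High, was taken from its correlation with the log2 signal ratio of the scanner files, 0.591 to 0.801 per array, its column medians were -0.032 to 0.032, while the sources used here do not give its normalization. Goat and dye in the image names matched the labels in 12 of 12 files.

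Signal means were background-corrected by normexp (offset 50) in limma 3.58.1 under R 4.3.3. Each array was normalized by 1 loess curve, leaving out control spots and 24 to 61 flagged probe spots per array. Values were averaged over the 2 spots of a probe, then over both arrays of a pair, which hold the same RNA. Probes above background in at least 6 of 12 readings with values on all arrays were tested: limma on 3 pair means against 0, Benjamini-Hochberg adjustment over 6733 probes. The pooled spread carries 7.47 degrees of freedom and a probe's own pairs 2. Single-channel levels were taken after Aquantile. Pairing comes from the labels and the shared arrays.

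The fit was tested on simulated data. Members and lists were chosen with earlier results of these data known. Named were all keratins with 1 symbol, up to 3 genes of smallest p per list, all called list members and the 5 likest probes of each keratin. The other genes described in the luminal, myoepithelial, anchorage and milk protein lists (MUC1, ELF5, PRLR, MYLK, CNN1, PLEC, JUP, CSN1S2, CSN3 and PAEP, with KIT, CTNNB1, MYH1 and ACTA1 in the closing section) were named after their values were seen. One probe per gene, the brightest, stood for a list member. Symbols come from the platform annotation. No sequence of these probes was used here.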

Additional observations from a re-analysis of the deposited data

How the results depend on the processing

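None of the 3 keratin probes passed in any of 22 alternatives, except KRT19 on Bt00008182 on the 3 arrays whose Low goat carried Cy3 (-0.44, limma adjusted p = 0.0026). On those whose Low goat carried Cy5 it was 0.17, Bt00001308 was 0.011 and the KRT19 minus KRT17 difference 0.33, signs opposite to the text. These single-orientation settings keep the dye effect by construction and passed 2453 and 1153 probes. KRT17 was below 0 in 22 of 22 alternatives, from -0.16 to -0.045, though some of these cannot change its mean.

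Across 11 other settings each probe stayed below 0, at -0.14 to -0.10 for Bt00008182, -0.060 to -0.012 for Bt00001308 and -0.12 to -0.072 for KRT17. Settings that change only the filter on dim probes or the form of the fit (dye term, goats unpaired) cannot move these means. They left each mean as it was, so their signs are no separate check. Leaving out a pair or an array gave -0.28 to 0.014 for Bt00008182, -0.082 to 0.0090 for Bt00001308, -0.14 to -0.063 for KRT17 and -0.22 to 0.16 for the difference. Where a single array was left out, the dye effect of its pair did not cancel, so those values mix it with the genotype ratio. Without a whole pair, Bt00008182 was at -0.20 to -0.098 and Bt00001308 at -0.060 to -0.0096. Bt00008182 was above 0 without the pair B array whose Low goat carried Cy3. Bt00001308 was above 0 without the pair C array whose Low goat carried Cy3. The difference changed sign without pair B (0.032) and without the Cy3-Low array of pair A (0.098), B (0.16) or C (0.0094).

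The count of probes past the threshold, 30, was 19 with offset 10, 18 with the series values, 19 with signal medians and 59 with 6 arrays and a dye term. It ran from 3 to 67 when a pair or array was left out, with 67 without pair A and 3 to 11 without any single array. With no replicate block, the goats being compared unpaired in limma, it was 0, and 11 probes had an unadjusted p under 0.05.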

Other observations

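Standing above background did not single out genes of the gland's epithelium on these arrays. KRT20 had a median signal 36.8 times the background in Low readings and 48.1 times in High readings. GFAP, a glial gene, and MYH1 and ACTA1, genes of skeletal muscle, stood above background in 12 of 12 readings. CTNNB1 and KIT, which gland epithelium is known to express, did so in 0 of 12. The 2 probes of KRT19 and the 1 of KRT17 were checked for a value apart from the rest in 9 sets of 6 values, and 0 were found.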
